A study of Homo sapiens with 6 samples.

Results

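The vacuolar proton pump, or V-ATPase, acidifies lysosomes, endosomes and the Golgi. It is built of a cytosolic V1 sector, which splits ATP, and a membrane sector, V0, through which protons pass. In V0 a ring of proteolipid subunits turns against the large a subunit, the d subunit couples the ring to the central stalk, and the small e subunit and the accessory proteins ATP6AP1 and ATP6AP2 sit with them in the membrane. Described here are 10 genes for this sector and its accessory proteins: ATP6AP1, ATP6AP2, ATP6V0A1, ATP6V0A2, TCIRG1, ATP6V0B, ATP6V0C, ATP6V0D1, ATP6V0E1 and ATP6V0E2. They were chosen by gene name, and all 10 were found by their GENCODE symbol among the 32750 gene IDs of the table.

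LX-2 is an established human cell line from hepatic stellate cells, which make collagen in the fibrotic liver. One group of 3 libraries came from cells given a non-targeting negative control siRNA (genotype given as wild type). The other 3 came from cells given an siRNA against human ATP6AP1 (genotype given as a transient knockdown). Per the submitters, replicates within a group are biologically independent. All 6 libraries are from 1 cell line, and the sources used here do not give the time after transfection or the siRNA sequence. Total counts ran from 15644464 to 19656533 per library, and the members held from 406 to 3798 counts in a library. Of the stellate cell markers, VIM and COL1A1 were abundant (4679 and 1013 CPM on average in the control libraries), while desmin, DES, had at most 11 counts in a library, and GFAP at most 3. The summed level of the 10 stellate markers in the table was 5585 to 6053 CPM in the control libraries and 3202 to 3608 CPM in the others. Most of this sum was VIM, at 4679 and 2757 CPM on average. Markers of hepatocytes summed to 0 CPM in the control libraries and at most 0.215 CPM in the others, and those of macrophages, endothelial cells and cholangiocytes stayed at or under 7.21 CPM in every library. Of the 7 stellate markers tested, 6 were lowered, and HAND2, scarce at 0.784 and 1.42 CPM on average, was raised. Over all genes tested, 26.6% were lowered and 26.7% raised, by the test given below. The part of these marker changes in the results below was not tested.

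In the libraries labelled ATP6AP1 siRNA, 6 of the 10 genes were raised, 2 were lowered and 2 did not pass the test. Raised were the siRNA target ATP6AP1 itself, all 3 a subunits (ATP6V0A1, ATP6V0A2 and TCIRG1) and both ring subunits (ATP6V0B and ATP6V0C), by 1.19 to 1.51-fold. Lowered were both e subunits, ATP6V0E1 by 1.42-fold and ATP6V0E2 by 1.23-fold. ATP6AP2 and the d subunit ATP6V0D1 did not pass. Calls are from the quasi-likelihood test of edgeR, Benjamini-Hochberg adjusted over the 15372 genes tested, at a threshold of 0.05, and all 10 members passed the filter on low counts. Over all genes tested, 53.3% were called, 26.7% raised and 26.6% lowered, so 8 calls among 10 members stand beside a high background, and whether the members differ from it was not tested. In 9 of the 10 members no value of 1 group lay within the range of the other, against 59.5% of all genes tested. The median log2 fold change of the members was 0.30, against -0.0043 over all genes tested, and their median absolute log2 fold change was 0.37, against 0.32.

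**Figure D1:**
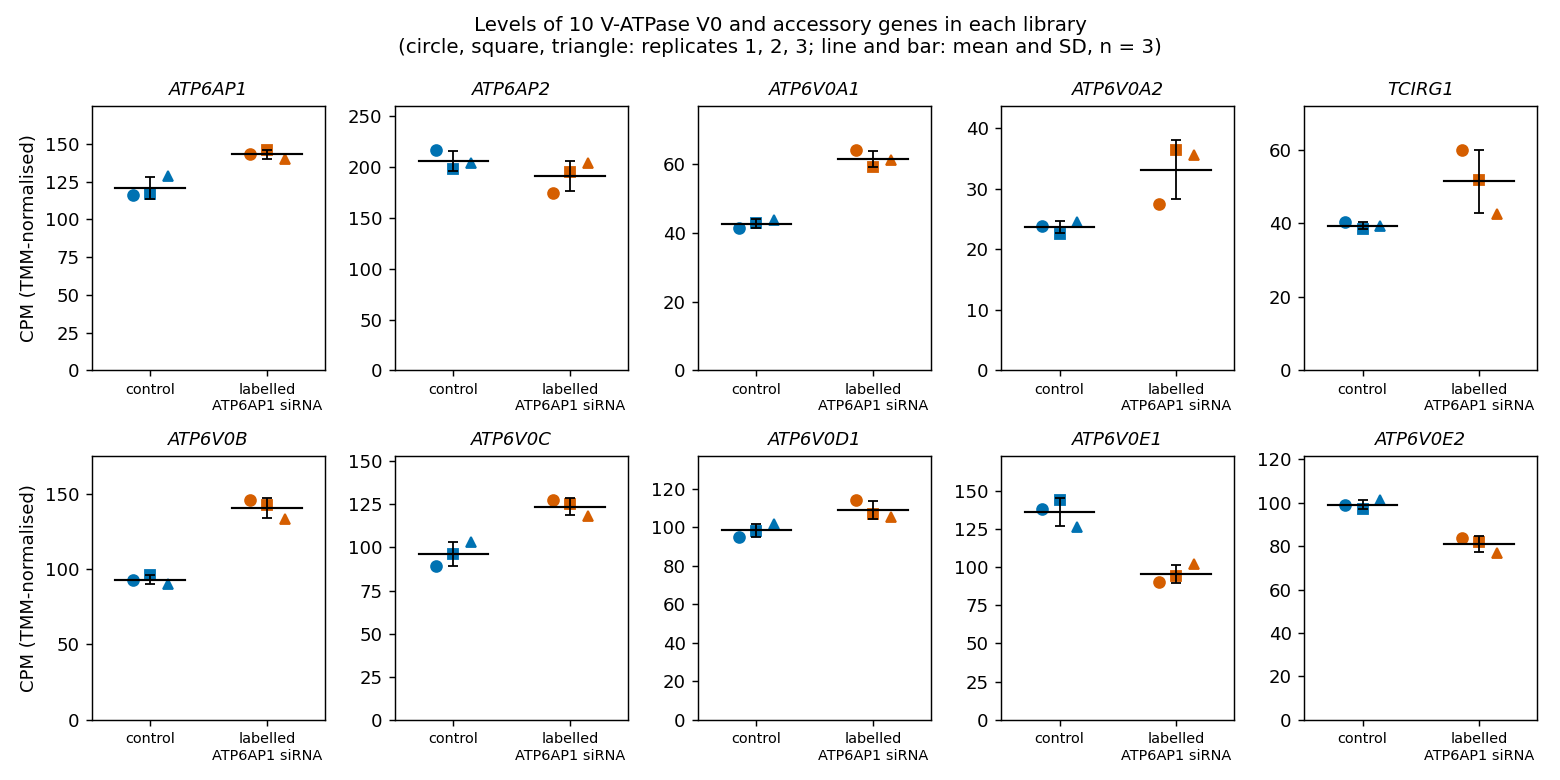
Level of each of the 10 genes in each library, as CPM with TMM normalisation, with circles, squares and triangles for replicates 1, 2 and 3 and lines and bars for the mean and SD of 3 libraries. The orange points lie above the blue ones for the a and ring subunits and ATP6AP1, below them for both e subunits, and for ATP6AP2 replicates 1 and 2 lie below the blue points and replicate 3 within their range.

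Levels are given as CPM, a gene's counts scaled to the size of its library after normalisation by TMM, which assumes that most genes do not change. ATP6AP1 (ENSG00000071553, chromosome X, 154428633 to 154436516 on GRCh38) encodes a glycosylated membrane protein that helps the pump assemble in the endoplasmic reticulum. In the control libraries it had 116, 117 and 129 CPM, while those labelled ATP6AP1 siRNA had 144, 146 and 140 CPM. The lowest of the latter was above the highest control value. The log2 fold change was 0.25 (95% confidence interval of the fold 1.08 to 1.30, edgeR adjusted p = 0.00425), so the mRNA of the target goes against the label. Directions are therefore those of a label, not of a measured depletion. Before any scaling ATP6AP1 had 1971, 2181 and 2176 counts in the control group and 2369, 2416 and 2605 in the other, although 2 of the latter 3 libraries had smaller totals than every control library. In a bulk library, fewer cells with a transcript and less of it per cell cannot be told apart.

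ATP6AP2 (ENSG00000182220, chromosome X, 40579372 to 40606848) encodes the other accessory protein. It stood at 217, 198 and 204 CPM in the control libraries and at 175, 195 and 204 CPM in the libraries labelled ATP6AP1 siRNA. The groups overlapped: replicates 1 and 2 of the siRNA-labelled group lay below every control value and replicate 3 among them. The log2 fold change was -0.11 (interval of the fold 0.839 to 1.03, edgeR adjusted p = 0.190). It crossed to 0.028 with library size alone, and it passed the test at -0.20 (adjusted p = 0.0267) once the trend of the fold change on gene span was removed.

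The level of ATP6AP1 relative to ATP6AP2 was then taken within each library, per kilobase of exon sequence. ATP6AP1 made up 47.3, 49.8 and 51.5% of the sum of both in the control group and 57.9, 55.7 and 53.5% in the other. The groups did not overlap, with means of 49.6 ± 2.09% and 55.7 ± 2.21% (SD, n = 3 each). The two-sided exact permutation test gave p = 0.1, the smallest that 3 against 3 libraries allow. The sum of both genes' CPM was 327 ± 10.4 and 334 ± 13.8 (SD, n = 3 each).

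The a subunit holds the channels by which protons reach and leave the ring, and its isoforms direct the pump to different membranes. ATP6V0A1 (ENSG00000033627, chromosome 17, 42458844 to 42522582), the a1 isoform, had 41.3, 42.8 and 43.8 CPM in the control libraries and 64.0, 59.2 and 61.1 CPM in the libraries labelled ATP6AP1 siRNA. The groups were well apart, by a log2 fold change of 0.53 (interval of the fold 1.31 to 1.59, edgeR adjusted p = 2.05e-05). ATP6V0A2 (ENSG00000185344, chromosome 12, 123712353 to 123761755), the a2 isoform, known from the Golgi, had 23.9, 22.6 and 24.5 CPM in the control libraries. It had 27.6, 36.4 and 35.6 CPM in the others, where replicate 1 lay close to the controls (log2 fold change 0.49, SE 0.102, adjusted p = 0.00131). TCIRG1 (ENSG00000110719, chromosome 11, 68039025 to 68050895), the a3 isoform, is known for its work at the ruffled border of osteoclasts. It had 40.3, 38.5 and 39.3 CPM in the control libraries and 59.9, 51.7 and 42.6 CPM in the others. Here replicate 3 lay close to the controls and replicate 1 was highest (log2 fold change 0.38, interval of the fold 1.12 to 1.52, adjusted p = 0.00686). Without replicate 1 of that group the log2 fold change of TCIRG1 was 0.26 (edgeR adjusted p = 0.0255), and without replicate 3 it was 0.50.

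The summed CPM of the 3 a isoforms was 106, 104 and 108 in the control group and 151, 147 and 139 in the other, a ratio of 1.38 between the group means. The proportions of the isoforms moved less than this sum. Per kilobase of exon sequence, TCIRG1 made up 64.7 ± 0.876% of the 3 isoforms in the control libraries and 62.3 ± 4.43% in the others, ATP6V0A1 24.9 ± 0.866% and 26.7 ± 2.32%, and ATP6V0A2 10.4 ± 0.273% and 10.95 ± 2.46% (SD, n = 3 each). None of the 3 shares separated the groups (two-sided exact permutation p = 0.5, 0.4 and 0.7, and 3 against 3 libraries cannot give less than 0.1). Within the siRNA-labelled group the share of TCIRG1 was 66.6, 62.7 and 57.7% and that of ATP6V0A2 8.19, 11.8 and 12.9%. The spread of these shares was thus several times that in the control group. The remaining a isoform, ATP6V0A4, stood at 1.23 ± 0.164 and 1.51 ± 0.316 CPM and did not pass (log2 fold change 0.29, edgeR adjusted p = 0.400).

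The rotating ring is made of the proteolipids c, from ATP6V0C, and c″, from ATP6V0B. ATP6V0B (ENSG00000117410, chromosome 1, 43974487 to 43978295) had 92.4, 95.8 and 89.8 CPM in the control libraries and 146, 142 and 133 CPM in the libraries labelled ATP6AP1 siRNA. These groups were far apart, and the log2 fold change of 0.60 was the highest of the 10 (interval of the fold 1.38 to 1.66, edgeR adjusted p = 3.50e-06). ATP6V0C (ENSG00000185883, chromosome 16, 2513952 to 2520218) had 89.4, 96.5 and 103 CPM in the control libraries and 128, 125 and 118 CPM in the others. The groups did not overlap (log2 fold change 0.36, interval of the fold 1.16 to 1.42, adjusted p = 0.000516). The value of ATP6V0C is uncertain in principle, since 94.2% of the 50-base windows of its transcript also occur in 2 read-through genes annotated over it. These 2 held at most 3.72 and 21.5 counts in a library, beside at least 1519 for ATP6V0C, and adding them to it gave a log2 fold change of 0.36.

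Per kilobase of exon sequence, ATP6V0B made up 31.1, 30.3 and 27.6% of the sum of both ring genes in the control libraries. In the others its share was 33.3, 33.2 and 33.0%, above each control library and nearly equal across the 3 (means 29.7 ± 1.84% and 33.2 ± 0.153%, SD, n = 3 each, two-sided exact permutation p = 0.1, the smallest possible). With the canonical transcript as length the means were 51.6 and 55.7%, so which ring gene is the larger depends on the length. Together the ring genes had 189 ± 6.19 CPM in the control libraries and 264 ± 11.6 CPM in the others, a ratio of 1.40.

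ATP6V0D1 (ENSG00000159720, chromosome 16, 67438014 to 67481181) encodes the d subunit, which joins the ring to the stalk. It had 95.3, 98.0 and 102 CPM in the control libraries and 114, 107 and 106 CPM in the libraries labelled ATP6AP1 siRNA. The groups did not overlap, but the log2 fold change of 0.15 did not pass (interval of the fold 1.01 to 1.21, edgeR adjusted p = 0.0548). It passed without control replicate 3 (adjusted p = 0.0369), without replicate 3 of the siRNA-labelled group (0.0354), with a filter of 5 CPM in 3 libraries (0.0353) and with library size alone (0.00148). Over all alternatives its adjusted p ran from 0.00148 to 1.00. The ID of the other d isoform, ATP6V0D2, was absent from the gene IDs of the count data, so ATP6V0D2 was not analysed here.

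The e subunit is a small hydrophobic protein of V0. ATP6V0E1 (ENSG00000113732, chromosome 5, 172983771 to 173035445) had 138, 144 and 126 CPM in the control libraries and 90.6, 94.5 and 102 CPM in the libraries labelled ATP6AP1 siRNA. All 3 of the latter were below every control library (log2 fold change -0.51, interval of the fold 0.634 to 0.779, edgeR adjusted p = 4.11e-05). ATP6V0E2 (ENSG00000171130, chromosome 7, 149872968 to 149891204) had 99.0, 97.1 and 101 CPM in the control libraries and 83.8, 81.9 and 76.8 CPM in the others. It too fell in all 3 (log2 fold change -0.30, interval of the fold 0.744 to 0.892, adjusted p = 0.00112). ATP6V0E2 overlaps an antisense RNA, ATP6V0E2-AS1, with 79 to 134 counts in a library against 1357 or more for ATP6V0E2. The sources used here do not say how the counting treated strand. The summed CPM of both e genes was 235 ± 6.87 in the control libraries and 177 ± 2.21 in the others (SD, n = 3 each), a ratio of 0.750. The share of ATP6V0E1 per kilobase was 85.4, 86.2 and 83.9% against 81.9, 82.9 and 84.8%, and the groups overlapped (two-sided exact permutation p = 0.2, against a smallest possible 0.1).

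**Figure D2:**
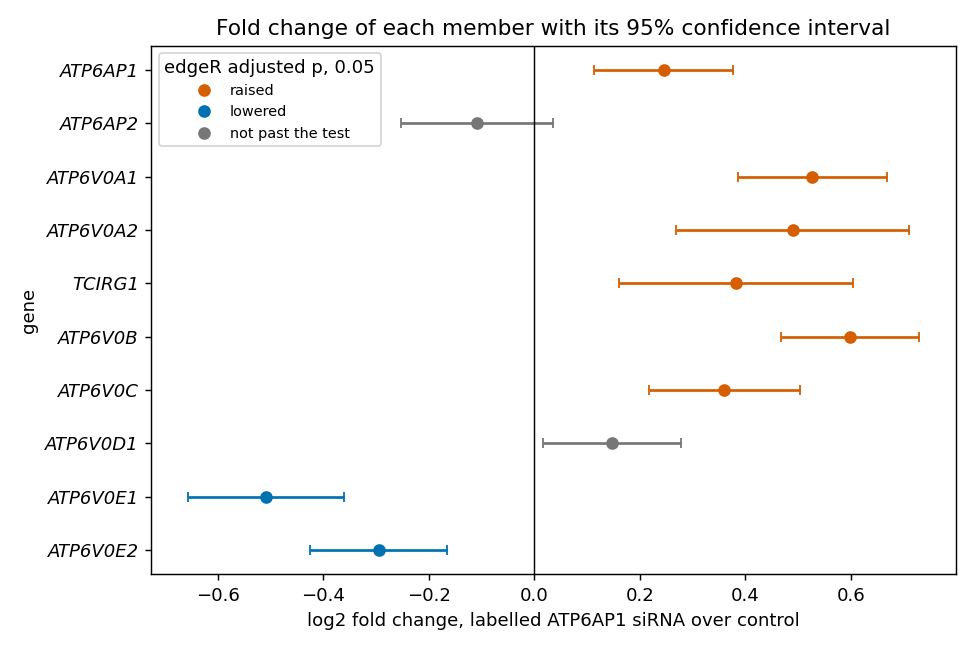
Log2 fold change of each gene in the libraries labelled ATP6AP1 siRNA over the control libraries, with a 95% confidence interval computed from its edgeR fold change and F statistic. Orange, blue and grey points are genes raised, lowered and not past the adjusted threshold of 0.05. ATP6V0B at 0.60 and ATP6V0E1 at -0.51 are the ends of the range, and the interval of ATP6AP2 includes 0.

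**Figure D3:**
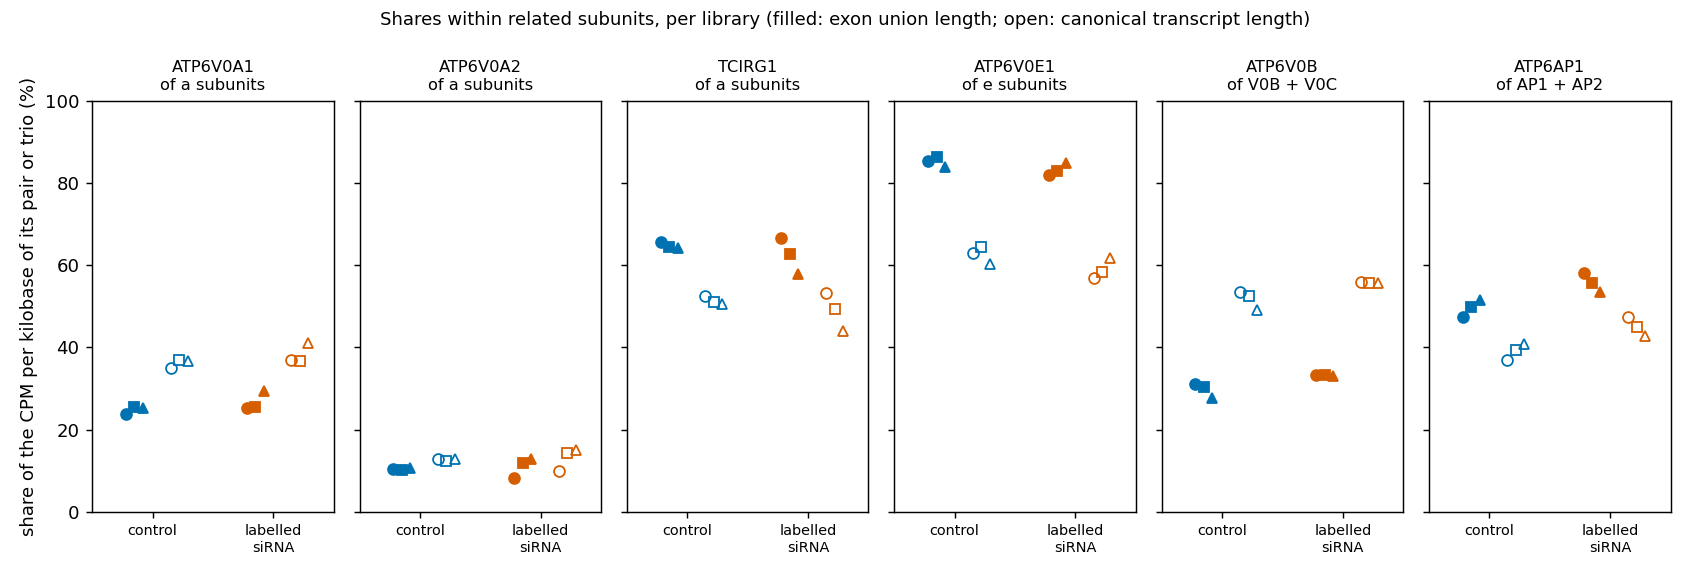
Share of 6 genes in the CPM per kilobase of their own pair or set of 3, in percent, in each library (circle, square and triangle for replicates 1, 2 and 3). Filled points use the exon union of the gene as its length and open points the canonical transcript. The share of ATP6V0B and of ATP6AP1 is higher in each library labelled ATP6AP1 siRNA than in each control library with both lengths, and the shares of the a isoforms overlap.

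Compared per length, ATP6V0E1 and the ring and accessory transcripts were the abundant ones and those of the a subunits the scarce ones. With the exon union as length, the control libraries had 84.6 ± 5.59 CPM per kilobase of ATP6V0E1, 68.0 ± 4.81 of ATP6V0C and 28.6 ± 0.921 of ATP6V0B. ATP6AP2 and ATP6AP1 followed at 21.6 ± 1.00 and 21.2 ± 1.28, neighbours whose values overlapped. ATP6V0E2 (14.7 ± 0.317), ATP6V0D1 (12.1 ± 0.412), TCIRG1 (8.57 ± 0.200), ATP6V0A1 (3.29 ± 0.0980) and ATP6V0A2 (1.38 ± 0.0565) came last, and each was apart from the next (SD, n = 3 each). In the libraries labelled ATP6AP1 siRNA, ATP6V0C stood first at 87.3 ± 3.52 CPM per kilobase and ATP6V0E1 second at 59.5 ± 3.62, so their order was the reverse of that in the control libraries. There ATP6V0E2 and TCIRG1 overlapped, at 11.98 ± 0.540 and 11.2 ± 1.88.

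That order depends on the length used, since the exon union, which joins the exons of all annotated transcripts, is 17.2 kb for ATP6V0A2 and 8.16 kb for ATP6V0D1 and their canonical transcripts are 6.51 and 1.64 kb. With the length of the Ensembl canonical transcript, a setting chosen after the data were seen, ATP6V0E1, ATP6V0B, ATP6AP2 and ATP6V0C lay together in the control libraries at 96.0, 93.9, 92.0 and 88.1 CPM per kilobase, each overlapping its neighbour. ATP6V0D1, ATP6AP1 and ATP6V0E2 formed a second group at 60.1, 58.8 and 57.6. TCIRG1, ATP6V0A1 and ATP6V0A2 were again last, at 14.8, 10.4 and 3.64. On this scale the first group spread out in the libraries labelled ATP6AP1 siRNA, with ATP6V0B at 142 ± 6.69, ATP6V0C at 113 ± 4.56, ATP6AP2 at 85.3 ± 6.62 and ATP6V0E1 at 67.4 ± 4.11 CPM per kilobase (SD, n = 3 each). The 3 a subunits stayed last with all 3 lengths tried, in both groups.

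The promoters of the members were read from RefSeq (GRCh38.p14), as 250 bases before and 50 bases after each start, and 9 of the 10 genes had an entry. They are shown because the lysosomal regulators TFEB, TFE3 and MITF are known to bind E-boxes of the form CACGTG, and because the genes that hold one here moved in different directions. The 100 bases before the start are printed for the 3 members with that motif and for the siRNA target. These RefSeq starts can differ from the GENCODE coordinates given above. The printed stretch of ATP6V0B lies inside its GENCODE span, and those of ATP6AP1 and ATP6V0D1 run into theirs. Capitals mark CACGTG and the GC box (GGGCGG or its reverse complement CCGCCC), and the last run of capitals in ATP6V0B is 2 GC boxes that overlap.
ATP6AP1 (chrX:154428577-154428676, plus strand): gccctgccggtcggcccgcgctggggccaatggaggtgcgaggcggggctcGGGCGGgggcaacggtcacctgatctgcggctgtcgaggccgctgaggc
ATP6V0B (chr1:43974860-43974959, plus strand): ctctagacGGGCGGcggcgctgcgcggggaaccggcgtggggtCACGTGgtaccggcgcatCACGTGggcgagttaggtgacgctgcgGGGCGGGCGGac
ATP6V0D1 (chr16:67481158-67481257, minus strand): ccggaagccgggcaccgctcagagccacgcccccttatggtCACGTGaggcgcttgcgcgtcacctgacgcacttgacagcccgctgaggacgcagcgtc
ATP6V0E2 (chr7:149872868-149872967, plus strand): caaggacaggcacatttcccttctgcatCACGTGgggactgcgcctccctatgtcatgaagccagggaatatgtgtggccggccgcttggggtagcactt

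ATP6V0B held CACGTG at 57 and 39 bases before its RefSeq start (counted to the first base of the motif), ATP6V0D1 at 59 and ATP6V0E2 at 72. CACGTG is its own reverse complement, so both strands were searched at once. It occurred in 3 of the 9 members with an entry (33.3%) and in 8.77% of the 27305 genes with an entry. Whether these shares differ was not tested. Of the V1 subunits, 1 of the 8 with an entry held CACGTG (ATP6V1G1, 12.5%). A longer form of the motif was also searched. This longer form occurred in none of the 9 members, in the same 1 of 8 V1 subunits and in 0.421% of all genes. ATP6V0E2 has 3 starts with an entry, and the third held no CACGTG. Of the 3 members with CACGTG, ATP6V0B was raised, ATP6V0E2 was lowered and ATP6V0D1 did not pass. The promoters of ATP6AP1, the a subunits and ATP6V0C held none in this window and these genes were raised. That of ATP6AP2 held none either, and ATP6AP2 did not pass. ATP6V0E1, which was lowered, is the member without an entry. The GC box occurred in 8 of the 9, the exception being ATP6V0D1, and in 48.3% of all genes. TATAAA or its reverse complement TTTATA occurred in none of the 9 and in 13.99% of all genes. The GC content of the members' promoters ran from 53.0 to 77.7%, beside a median of 58.7% over all entries. A match is a description of these letters and not a measured site.

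The genes for those regulators and for the rest of the pump were read in the same fit, from lists chosen with earlier results of these data known. Over all genes tested 53.3% were called, and whether any list differs from that share was not tested. Of 4 MiT/TFE genes, 3 were tested. TFE3 stood at 161 ± 8.94 CPM in the control libraries and 121 ± 9.52 CPM in the others (SD, n = 3 each), a log2 fold change of -0.41 (edgeR adjusted p = 0.000292). MITF was at 34.2 ± 1.06 and 27.8 ± 1.07 CPM (log2 fold change -0.30, adjusted p = 0.00330). With the gene span trend removed MITF was at 0.037, so its direction rests on that choice, and with library size alone it did not pass (adjusted p = 0.0649). TFEB, at 3.62 ± 0.733 and 4.08 ± 0.549 CPM, did not pass.

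**Figure D4:**
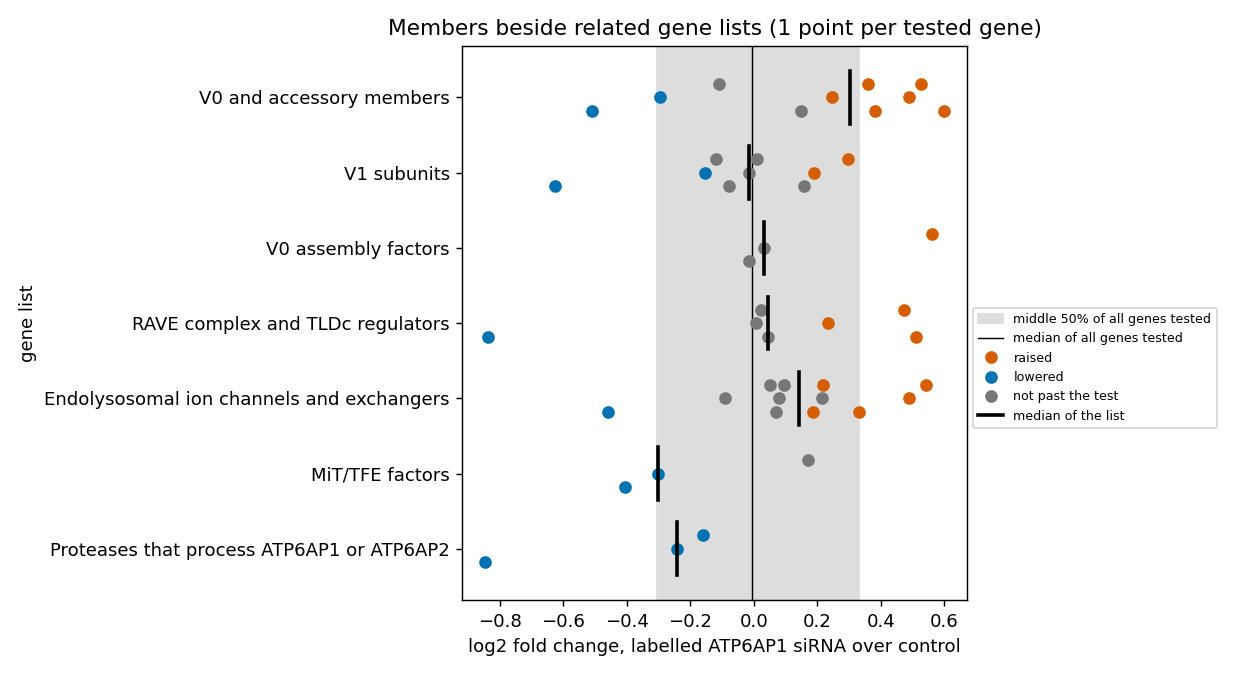
Log2 fold change of each tested gene in 7 lists, with orange, blue and grey points for genes raised, lowered and not past the test, a thick line for each list's median, and a grey band for the middle 50% of all genes tested. The median of the 10 V0 and accessory genes is 0.30 and that of the 9 tested V1 subunits -0.014.

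Of the 13 V1 subunits, which form the ATP-splitting head and stalks, 9 were tested, 2 were raised, 2 were lowered and 5 did not pass, with a median log2 fold change of -0.014. The share called over all genes tested was 53.3%. ATP6V1A, the catalytic A subunit, was at 63.5 ± 3.50 CPM in the control libraries and 78.0 ± 5.93 CPM in the others (SD, n = 3 each), a rise of 0.30 on the log2 scale (edgeR adjusted p = 0.00373). The other 3 calls were near the threshold: ATP6V1E2 at -0.63 (adjusted p = 0.0218), ATP6V1G1 at 0.19 (0.0328) and ATP6V1B2 at -0.15 (0.0346). ATP6V1E2 was scarce, at 2.79 ± 0.169 and 1.81 ± 0.174 CPM. It did not pass with DESeq2 (DESeq2 adjusted p = 0.144) or with no filter (edgeR adjusted p = 0.0504). Each of the 3 calls was lost when some single library was left out. For ATP6V1E2 these were control replicates 1 and 3 and siRNA-labelled replicates 2 and 3 (adjusted p = 0.0537, 0.0753, 0.0673 and 0.0689). For ATP6V1G1 they were control replicate 3 and siRNA-labelled replicates 2 and 3 (0.0809, 0.0801 and 0.107), and for ATP6V1B2 control replicates 1 and 2 and siRNA-labelled replicates 1 and 2 (0.138, 0.139, 0.0727 and 0.110). With library size alone ATP6V1B2 and ATP6V1E2 did not pass (0.811 and 0.0618), nor did ATP6V1G1 with the gene span trend removed (0.329). The call of ATP6V1A was kept with every single library left out, as were those of the 8 called members. ATP6V0D1, not called, passed without control replicate 3 or siRNA-labelled replicate 3 (edgeR adjusted p = 0.0369 and 0.0354). Whether the 2 sectors differ was not tested.

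Of the 3 factors that assemble V0 in the endoplasmic reticulum, TMEM199, the human relative of yeast Vma12, was raised, with 40.2 ± 4.95 CPM in the control libraries and 59.2 ± 2.19 CPM in the others (SD, n = 3 each), by 0.56 on the log2 scale (edgeR adjusted p = 0.000123). It is uncertain, since 54.7% of its windows occur in other transcripts. VMA21 and CCDC115 had log2 fold changes of -0.016 and 0.032 and did not pass. Among the RAVE complex, which helps V1 dock on V0, and the TLDc proteins, which bind the pump, 3 of 7 tested genes were raised, 1 was lowered and 3 did not pass, beside 53.3% called over all genes tested. The RAVE subunits DMXL2 (38.5 ± 1.60 to 54.7 ± 5.95 CPM) and WDR7 (19.8 ± 1.56 to 27.4 ± 3.03 CPM) rose by 0.51 and 0.47 on the log2 scale (adjusted p = 0.000213 and 0.00121). The TLDc gene MEAK7 stood at 40.2 ± 0.449 CPM in the control libraries and 22.5 ± 1.88 CPM in the others (log2 fold change -0.84, adjusted p = 1.84e-06). OXR1, another TLDc gene, was at 0.23 (adjusted p = 0.0184, and 0.0717 without control replicate 2). With the gene span trend removed 5 of these genes were raised, and the log2 fold changes of WDR7, OXR1 and DMXL2 were 0.96, 0.80 and 0.76.

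RNASEK (uncertain, with 39.9% of its windows in other transcripts), a small protein found with the pump in structures of mammalian V0, stood at 96.3 ± 7.31 and 93.2 ± 2.66 CPM (SD, n = 3 each) and did not pass (log2 fold change -0.047, edgeR adjusted p = 0.585). Of 12 genes for channels, exchangers and an associated subunit in the endolysosomal membrane, 5 were raised, TPCN1 was lowered and 6 did not pass. The associated subunit was among the 5 raised. Over all genes tested 53.3% were called. The median log2 fold change of the 12 was 0.14. The count of raised genes among these 12 was 2 without siRNA-labelled replicate 2, 3 without control replicate 1, 2 at an adjusted threshold of 0.01 and 2 with the replicate number as a block. The calcium channel MCOLN1 rose by 0.49 on the log2 scale (adjusted p = 0.00102) and the proton channel TMEM175 by 0.54 (adjusted p = 0.00634). The two-pore channel TPCN1 fell by 0.46 (adjusted p = 0.000546). The chloride-proton exchanger CLCN7 was at 0.33 (adjusted p = 0.0185), a call lost without control replicate 1 or 2 or siRNA-labelled replicate 1 or 2 (0.0794, 0.0845, 0.0797 and 0.0678).

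ATP6AP1 and ATP6AP2 are cut by proteases on their way through the Golgi. Of 3 such proteases, ADAM19, described as cutting ATP6AP2, stood at 43.0 ± 4.97 CPM in the control libraries and 23.9 ± 1.76 CPM in the others (SD, n = 3 each), a log2 fold change of -0.85 (edgeR adjusted p = 8.54e-06). MBTPS1 and FURIN were lowered at -0.16 and -0.24 (adjusted p = 0.0309 and 0.0409). The call of MBTPS1 was lost without each single library but siRNA-labelled replicate 3, with adjusted p of 0.0673, 0.115 and 0.111 without control replicates 1, 2 and 3 and 0.0609 and 0.0660 without siRNA-labelled replicates 1 and 2. That of FURIN was lost without control replicate 2 or 3 or siRNA-labelled replicate 2 or 3 (0.138, 0.274, 0.128 and 0.0927). With library size alone neither passed (0.736 and 0.369).

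By likeness over the 6 libraries, the 5 genes nearest to ATP6AP1 among 11199 with a symbol and a mean of at least 5 CPM were DNAJC22, PRPF6, SCAMP2, GPR137 and LLGL2. Likeness was Pearson's correlation of log2 CPM, from 0.991 to 0.997 for these 5, and it is a description only, since the libraries fall into the same 2 groups for every gene. Their log2 fold changes were 0.43, 0.39, 0.44, 0.57 and 0.73. Among the members, ATP6V0C ranked nearest to ATP6AP1, at place 47 of the 11199, then ATP6V0A1 at 666, while ATP6V0E1 was at 11039.

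The members' fold changes were then set beside their values under other settings. With library size alone in place of TMM, the median log2 fold change of all genes tested moved by 0.14, and 5618 genes were raised and 2733 lowered, against 4110 and 4083. ATP6AP1 was then at 0.38, ATP6V0E1 at -0.37 and ATP6V0E2 at -0.16 (edgeR adjusted p = 0.000165, 0.000452 and 0.0420), and 7 members were raised and 2 lowered. Leaving out TMM rescales whole libraries, so all genes move by about the same amount. Relative to that shift the values could hardly change, whatever the genes do. With the trend on gene span removed, ATP6AP1 was at 0.18 and TCIRG1 at 0.27, and 6 members were raised and 3 lowered, the third being ATP6AP2. In both settings the direction of the 8 called members was the same as in the TMM fit.

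**Figure D5:**
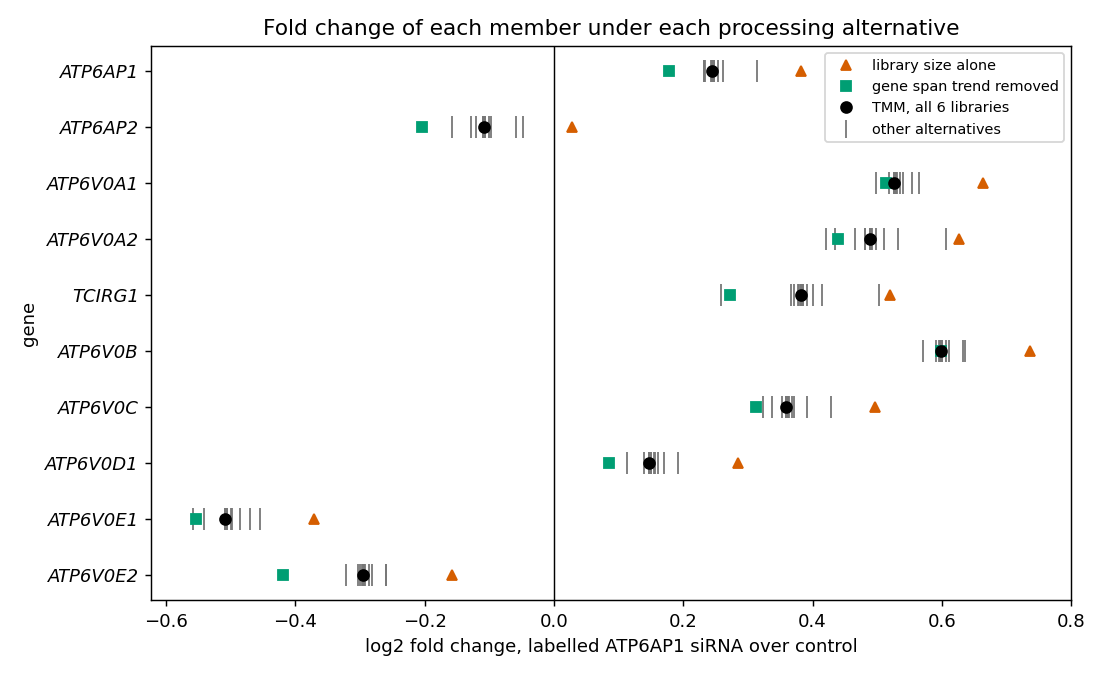
Log2 fold change of each of the 10 genes under each processing alternative, with a black point for TMM with all 6 libraries, an orange triangle for library size alone, a green square with the trend on gene span removed, and grey ticks for the others. No value of the 8 called genes crosses 0, and ATP6AP2 crosses to 0.028 with library size alone.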

How the data were processed

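Per the labels' protocols, mRNA captured by its poly(A) tail was fragmented, primed with random hexamers and sequenced as paired ends. HISAT2, featureCounts, Trimmomatic, FastQC, DESeq2 and the build GRCh38 are named, per the submitters' processing notes; the sources used here do not give the annotation, the strand setting or how reads with several matches were counted. The authors deposited estimated counts (expected counts, since 12.3 to 13.9% of genes per library hold a value that is not whole), which were rounded to whole numbers, although whole counts had been assumed. Groups and replicate numbers came from the sample titles.

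Members and lists were chosen with earlier results of these data known. Genes passing filterByExpr (15372) were compared with edgeR 4.0.16 in R 4.3.3 (quasi-likelihood F test, TMM, group as the term, Benjamini-Hochberg adjustment). Other tools were DESeq2 1.42.0 and limma 3.58.1. Symbols, coordinates and lengths came from GENCODE release 44 on GRCh38, promoters from RefSeq. Over 30% of 50-base windows in other transcripts marks a gene as uncertain. Named genes were all members, up to 4 called genes with the lowest adjusted p in each related list (2 where none was called) and the 5 genes most like ATP6AP1. VMA21, CCDC115 and TFEB were named after their values were seen. The edgeR comparison was also tested on simulated counts. One marker and a related gene list are not reported here.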

Additional observations from a re-analysis of the deposited data

How the results depend on the processing

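Over 18 alternatives for each of the 10 members, 170 of 180 values kept their direction and side of the threshold, 5 passed where they had not, 4 no longer passed and 1 changed sign (ATP6AP2, 0.028 with library size alone). Some of these settings could hardly move a value by construction, so 170 overstates how far the members were probed. The threshold of 0.01 reuses the same fit, and the test against a fold of 1.2 the same fold changes. Read-through summing alters the counts of ATP6V0C alone among the members. A test against a fold of 1.2 ended the call of ATP6AP1 (log2 fold change 0.25, edgeR adjusted p = 0.591) and those of TCIRG1, ATP6V0C and ATP6V0E2 (0.123, 0.0777 and 0.273); it left 3 members raised, 1 lowered and 4636 genes changed. That test asks for a larger change by its construction. Leaving out 1 library at a time gave 6 to 7 members raised, 2 lowered, 6863 to 8087 genes changed and an ATP6AP1 log2 fold change of 0.23 to 0.31. RNASEK, not past the test, crossed to 0.090 with library size alone and ran from -0.090 to 0.0034 with 1 library left out, and MITF crossed to 0.037 with the gene span trend removed; the cause was not tested.

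The shift in the share of ATP6V0E1 among the e genes was -1.97 percentage points, -3.52 with the canonical transcript as length and -3.63 with no length correction; the length alone sets this. The levels of the shares depend on the length too. In the control libraries the mean share of ATP6V0E1 was 85.2% with the exon union and 62.5% with the canonical transcript. For ATP6AP1 these were 49.6 and 39.0%, and for TCIRG1 64.7 and 51.3%. With 1 library left out, the shifts of ATP6V0A1, ATP6V0A2 and TCIRG1 ran from 0.49 to 2.56, from -0.39 to 1.95 and from -4.51 to -0.0955 points. Without siRNA-labelled replicate 3 the first and the last were nearest to 0 and that of ATP6V0A2 changed sign.

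Replicate numbers did not pair the samples: deviations of same-numbered libraries correlated at -0.088, -0.029 and -0.10 across genes, and no library was nearest to its own number. With the replicate block, 6 members were raised, 2 lowered and 7195 genes changed, and ATP6AP1 was at 0.25. Read-through summing and canonical lengths were added after the data were seen. Strand and multiply mapping reads limit ATP6V0C and ATP6V0E2.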
